A study of Mus musculus with 6 samples.

Results

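Rab GTPases and the genes named after them were followed in cultured mouse monocytes given IFN-beta. A gene was taken where an array probe carried a name made of Rab, a number and optional letters, and it was kept where a probe lay well above background on all 3 arrays of at least 1 group. The pattern took 70 genes, of which 61 were kept among 19499 genes tested. Of the 61, 50 are Rab GTPases. The other 11 only carry the name: the Rab11-binding proteins Rab11fip1 to Rab11fip5, the Rab3 GTPase-activating subunits Rab3gap1 and Rab3gap2, the exchange factors Rab3il1 and Rab3ip, and the antisense transcripts Rab10os and Rab26os.

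The monocytes were sorted magnetically out of bone marrow taken from C57BL/6J mice aged 6 to 8 weeks. In the IFN-beta group they spent 60 h with 20 ng/mL of M-CSF, a growth factor under which monocytes become macrophages, and 100 U of the type I interferon IFN-beta. The control group had the same strain, age, cells, M-CSF and time, without IFN-beta. Total RNA of 3 samples per group was labelled with Cy3 and each sample hybridised to 1 Agilent array. The labels do not say that the 3 samples of a group came from separate mice or cultures, so p-values measure only the spread between these samples, which may be technical.

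Rab GTPases are small membrane switches. In their GTP-bound form they sit on the surface of a particular organelle and recruit effectors that move, tether or fuse vesicles, and in their GDP-bound form they are taken off the membrane. Exchange factors switch them on, GTPase-activating proteins switch them off, and escort proteins and geranylgeranyl transferase give them their lipid anchor. In macrophages they direct the maturation of phagosomes and endosomes, and in granulocytes and mast cells the release of granules.

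Control 3 stood apart from the other controls. The 75th percentile of the signal was 236 to 244 on the IFN-beta arrays, against 305 to 549.7 on the controls, and 49.0% to 52.5% of probes lay well above background on the IFN-beta arrays, against 52.5% to 63.9% on the controls. No probe was saturated. Over the 61 genes the median absolute log2 difference was 0.156 to 0.200 between IFN-beta arrays. It was 0.0761 between controls 1 and 2, but 0.522 and 0.539 between control 3 and these, and 0.402 to 0.474 between the IFN-beta arrays and control 3. The changed genes and those near the threshold are therefore also given against control 3 alone. That fit holds 1 control array, so its residual spread comes from the IFN-beta arrays only and its p-values hold no spread between controls. Slide 1 held IFN-beta 1 and the 3 controls, and slide 2 held IFN-beta 2 and 3, so a comparison within a slide exists only on slide 1. With the slide as a block, the fitted change is likewise that of IFN-beta 1 against the 3 controls. IFN-beta 2 and 3 then enter only the residual spread.

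Markers of the labelled cell type were present on every array: the 10 monocyte and macrophage genes, such as Csf1r and Cd68, were all above background, with a summed signal of 839 to 842 times the 75th percentile on IFN-beta arrays, against 619 to 922 on controls. Of these 10, 1 rose in limma, Fcgr1 (log2 fold change 2.20), and 3 fell, Itgam (-0.72), Cx3cr1 (-1.44) and Mertk (-1.76). Fibroblast markers (17 genes, collagens among them) summed to 4.58, 4.01 and 4.39 on the IFN-beta arrays, against 592, 687 and 1.75 on controls 1, 2 and 3, and 7 of them were dim on all IFN-beta arrays and 9 on control 3. Neutrophil markers (10 genes) summed to 477 to 597 on IFN-beta arrays, against 164 to 271 on controls, and 9 of 10 passed the test upward. Basophil and mast cell markers (8 genes) summed to 95.0, 101 and 68.4 on IFN-beta arrays, against 7.40, 7.14 and 12.1 on controls, with 8 of 8 higher in limma. The sum of erythroid markers (7 genes, the globin Hba-a1 among them) split the controls as the fibroblast markers did. It was 8.27, 9.79 and 7.88 on IFN-beta arrays, against 138, 128 and 5.04 on controls. This split is mostly that of Hba-a1, with log2 levels relative to the 75th percentile of 7.06, 6.95 and -0.89 on controls. Tfrc, the other erythroid gene tested, rose in limma (1.11), and control 3 was its highest control. Dendritic cell markers (8 genes) summed to 107 to 132 on IFN-beta arrays, against 55.8 to 66.8 on controls. Of the 7 tested, 2 rose, Bst2 and Ccr7, and 3 fell, Cd209a, Zbtb46 and Clec9a. Bst2 was the brightest of them on every IFN-beta array and weighs most in those sums. The median log2 level of the 8 genes, relative to the 75th percentile, went the other way. It was -2.22, -2.08 and -2.45 on IFN-beta arrays, against 0.56, 0.46 and 1.26 on controls. In bulk RNA, fewer cells of a type and less RNA per cell cannot be told apart. The part of these other cell types in the Rab results was not tested.

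**Figure D1:**
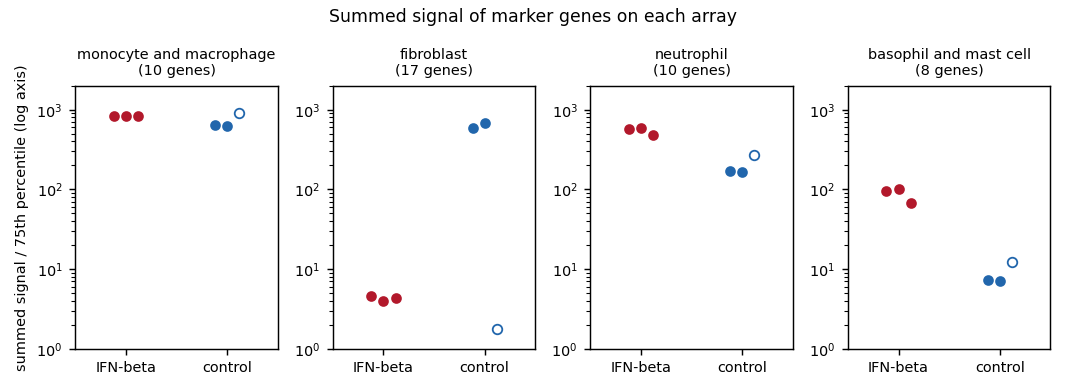
Summed signal of marker genes divided by the array's 75th percentile (log axis), 1 point per array, for the IFN-beta arrays (left, red) and the controls (right, blue; control 3 is the open circle). Fibroblast markers sum to 592 and 687 on controls 1 and 2 and to 1.75 on control 3, below the IFN-beta arrays, whereas basophil and mast cell markers are higher on all IFN-beta arrays than on all controls.

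IFN-beta changed 16 of the 61 genes (26.2%) in limma with Benjamini-Hochberg adjustment over all genes, at an adjusted p under 0.05. Of all 19499 genes tested, 19.8% were changed, 11.8% higher and 8.03% lower. All 9 genes that rose are GTPases: Rab15, Rab44, Rab37, Rab27a, Rab38, Rab19, Rab20, Rab5c and Rab22a. The 7 that fell were the GTPases Rab6b, Rab34 and Rab3a and the Rab-binding or exchange proteins Rab11fip3, Rab11fip5, Rab3il1 and Rab3ip. By group, 12 of 50 GTPases (24%) and 4 of 11 other genes (36.4%) changed. The median log2 fold change of the 61 was 0.06, beside 0.10 over all genes. The 3 arrays of each group did not overlap for 27 of the 61 genes (44.3%), against 40.1% of all genes. On every IFN-beta array 13 genes lay above all controls (23.4% of all genes did) and 14 below (16.8%).

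Against control 3 alone, 13 genes passed (21.3%, beside 9.54% of all genes), 6 of them higher and 7 lower, beside 5.22% and 4.32% of all genes. The median was -0.15 beside -0.10 over all genes. Of the 16 changed genes, 10 passed this test too, all in the same direction: Rab15, Rab44, Rab37, Rab27a, Rab20, Rab6b, Rab34, Rab3a, Rab11fip5 and Rab3il1. Also in that count but not among the 16 were Rab39 and Rab9, which were lower, and Rab27b, which was higher. Rab27b was dim on control 3 and kept only through the IFN-beta group, so its place in the count is not a test result. Called both ways were 7.7% of all genes. Against controls 1 and 2 without control 3, 36 of the 61 genes passed (59%, beside 48.2% of all genes), 22 of them higher and 14 lower, beside 33.1% and 15.1% of all genes. All 16 kept their sign within slide 1, which was fixed in advance, as the groups did not overlap for any of them. The shared direction against control 3 alone was fixed for the same reason. With the slide as a block, the change again rests on IFN-beta 1 against the controls. The call then stayed for Rab15, Rab44, Rab37, Rab27a, Rab38 and Rab34, and Rab13, not called against all controls without a block, was called. These are 7 of the 61 genes, beside 1039 of all 19499 genes. The other called genes then had an adjusted p from 0.0627 (Rab3a) to 0.250 (Rab3ip). On slide 1 alone Rab15 passed, and the other called genes had an adjusted p from 0.0714 (Rab44) to 0.390 (Rab3ip). The comparisons share the IFN-beta arrays, and those with all controls also share controls.

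**Figure D2:**
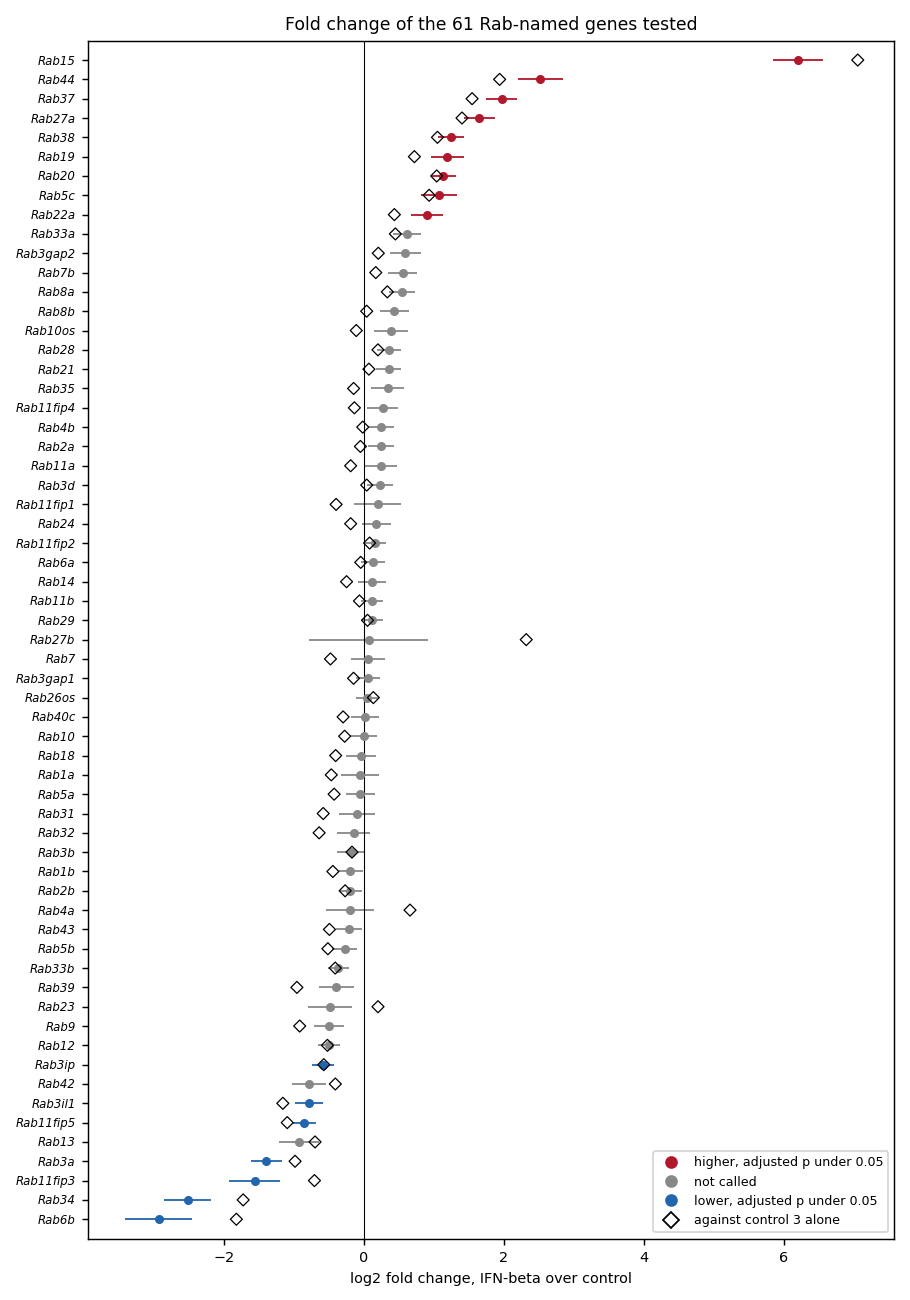
Log2 fold change (IFN-beta over control, x axis) of each of the 61 genes, with the standard error as a bar; red and blue points passed the limma test upward (9) and downward (7), grey points did not, and open diamonds give the value against control 3 alone. Rab15 stands apart at 6.21, the other changed genes lie between -2.94 and 2.52, and the diamond of Rab27b at 2.32 is a fitted value for a gene that was dim on control 3.

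Among the early endosome and recycling Rabs, 3 of 13 tested genes rose, and none fell, beside 11.8% and 8.03% of all genes. The largest change of all 61 genes was in Rab15, which acts in recycling from the sorting endosome and is best known from neurons. Its level, on a log2 scale relative to the 75th percentile of the array, was 4.88, 5.003 and 5.27 on IFN-beta arrays, against -0.84, -0.61 and -2.01 on controls. Every IFN-beta array lay far above every control, and control 3 was the lowest. The means were 5.05 ± 0.20 with IFN-beta and -1.15 ± 0.75 in control (SD, n = 3 each). This is a log2 fold change of 6.21 ± 0.36 (SE; 73.9-fold, limma adjusted p = 8.26e-05), with 7.06 against control 3 alone (adjusted p = 2.88e-04) and 6.04 within slide 1 (adjusted p = 0.0275). Rab15 passed under all 19 alternative settings, the only member to do so. The probe lies at chr12:77898991-77899050 (mm9, as the files give it). A second Rab15 probe had -1.81, -2.21 and -1.78 on IFN-beta arrays, against -5.21, -4.86 and -4.33 on controls. It was above background on 1 of the 3 controls, so its fitted change of 2.87 is not a measured fold.

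**Figure D3:**
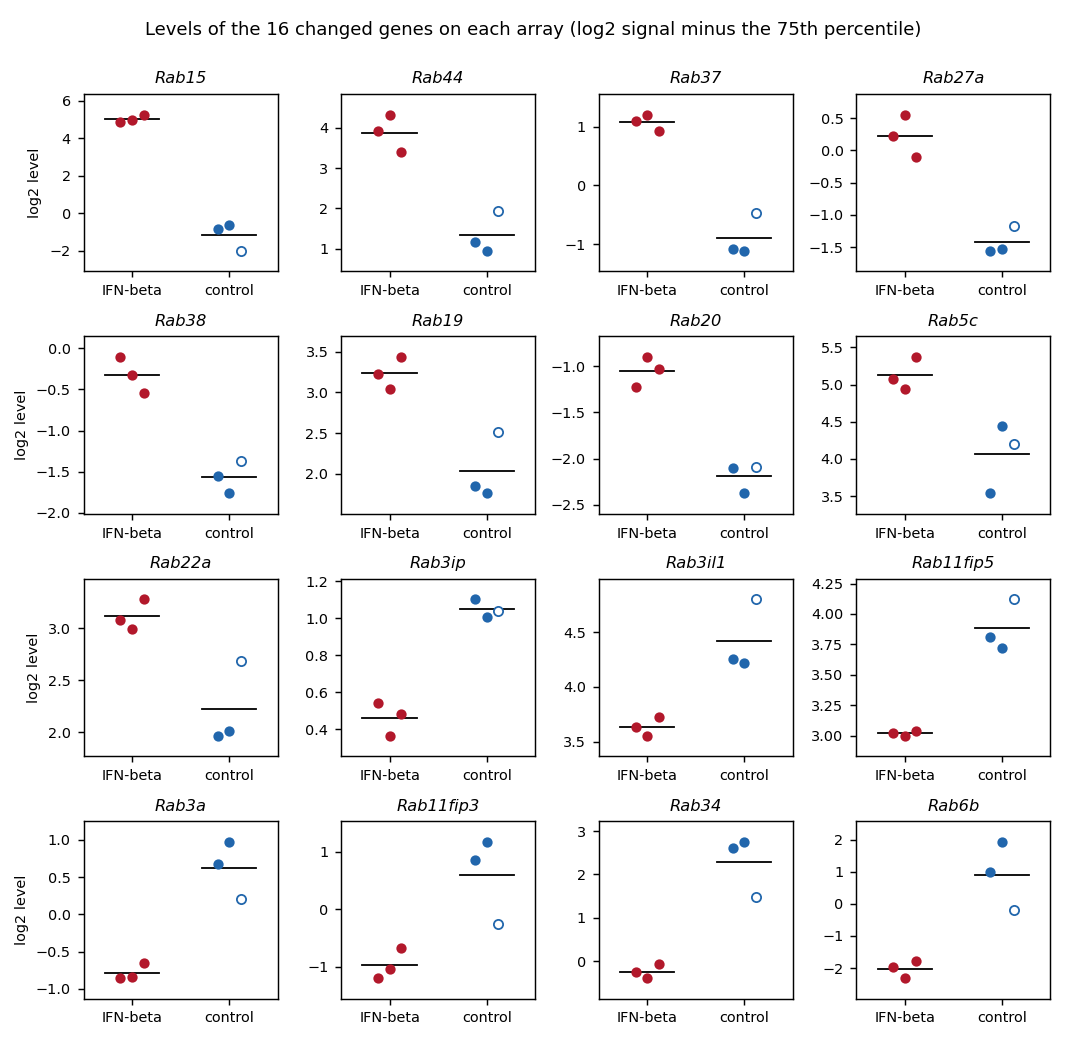
Level of each of the 16 changed genes on each array (log2, relative to the array's 75th percentile, y axis; each panel has its own range), IFN-beta arrays on the left in red and controls on the right in blue, with control 3 as an open circle and the group mean as a line. The groups do not overlap in any panel. Control 3 lies between the IFN-beta arrays and the other controls in every panel except Rab15, Rab5c, Rab11fip5, Rab3il1 and Rab3ip.

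The promoters of 2 of the genes that rose are shown: Rab15, for the size of its change, and Rab19, for letters that match an interferon-related motif. The interferon-stimulated response element (ISRE) is the promoter element through which many genes respond to type I interferon. RefSeq promoters (GRCm38.p6, 250 bases before to 50 after a start) were searched on both strands for its core (GAAA, any 2 bases, GAAA). The core was in 1131 of all 32851 promoters (3.44%) and in 2 of 75 promoters of the named genes (2.67%), those of Rab19 and Rab10os. Of the genes that rose, 6 had promoters in the table (10 starts), and Rab44, Rab37 and Rab38 were not in it. Of these 10 promoters 1, that of Rab19, held the core. A match is a description of letters, not a site. The promoter of Rab19 (chr6:39381103-39381402, plus strand) has 2 matches on the minus strand, in capitals, which overlap each other and begin at positions -10 and -4 from the start. Rab15 has 4 starts, and the promoter of the most upstream one (chr12:76822475-76822774, minus strand) is printed in lower case throughout, as it holds no match.
Rab19: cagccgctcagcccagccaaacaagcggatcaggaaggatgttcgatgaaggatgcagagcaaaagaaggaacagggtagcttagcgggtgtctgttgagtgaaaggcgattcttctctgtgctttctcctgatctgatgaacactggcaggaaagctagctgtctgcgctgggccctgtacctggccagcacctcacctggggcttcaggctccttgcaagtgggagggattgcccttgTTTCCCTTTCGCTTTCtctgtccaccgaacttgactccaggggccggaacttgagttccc
Rab15: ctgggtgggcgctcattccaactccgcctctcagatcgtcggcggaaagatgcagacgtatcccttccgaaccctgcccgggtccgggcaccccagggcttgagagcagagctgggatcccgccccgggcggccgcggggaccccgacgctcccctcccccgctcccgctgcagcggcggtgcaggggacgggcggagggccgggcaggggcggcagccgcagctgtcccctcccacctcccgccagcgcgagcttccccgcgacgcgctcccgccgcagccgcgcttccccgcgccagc

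Rab5c, an isoform of the Rab5 GTPases that drive fusion of early endosomes, had levels of 5.08, 4.94 and 5.37 on IFN-beta arrays, against 3.54, 4.45 and 4.20 on controls. The groups did not overlap, and control 3 lay between controls 1 and 2. The log2 fold change was 1.07 ± 0.26 (limma adjusted p = 0.0273), 0.93 against control 3 alone (adjusted p = 0.0726) and 1.02 within slide 1, and the call was lost with the slide as a block (adjusted p = 0.211). The call was lost when any 1 IFN-beta array or control 1 was left out (highest adjusted p = 0.101). Its isoforms Rab5a and Rab5b did not pass the test, at -0.05 ± 0.20 and -0.28 ± 0.18, and the difference between isoforms was not tested.

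Rab22a, which controls entry into and recycling from early endosomes, had levels of 3.08, 2.99 and 3.27 on IFN-beta arrays, against 1.97, 2.01 and 2.68 on controls. This probe rose by 0.90 ± 0.23 (limma adjusted p = 0.0327), but by 0.43 against control 3 alone (adjusted p = 0.283). The gene's other probes did not share the direction: they stood at -0.45 (adjusted p = 0.0964) and -0.28, and with the mean of all probes the change was 0.06 (adjusted p = 0.843). The call was also lost when any 1 array other than control 3 was left out (highest adjusted p = 0.129). Its close relative Rab31 stood at -0.11 ± 0.26. The recycling Rabs Rab11a (0.24 ± 0.22), Rab11b (0.12 ± 0.16), Rab14 (0.12 ± 0.20), Rab4a (-0.20 ± 0.35), Rab4b (0.25 ± 0.19), Rab35 (0.34 ± 0.23) and Rab21 (0.35 ± 0.18) did not pass.

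Late endosome and lysosome Rabs had no changed gene among 6 tested in limma, beside 19.8% of all genes. An unadjusted limma p under 0.05 was reached by 2 of the 6, and by at least 6526 of all 19499 genes. Rab7, which directs fusion of late endosomes and phagosomes with lysosomes, had levels of 4.65, 4.56 and 4.70 on IFN-beta arrays, against 4.30, 4.31 and 5.12 on controls, a log2 fold change of 0.06 ± 0.25 (adjusted p = 0.885; -0.48 against control 3 alone). The IFN-beta arrays lay above controls 1 and 2 and below control 3. Rab7b, a late endosomal Rab that limits Toll-like receptor signalling in macrophages, had 7.57, 7.56 and 7.73, against 6.93, 6.82 and 7.45 on controls (0.55 ± 0.21, adjusted p = 0.0980; 0.17 against control 3 alone). Rab12, which sends the transferrin receptor to degradation, had 2.30, 2.19 and 2.42, against 2.73, 2.85 and 2.83 on controls (-0.50 ± 0.16, adjusted p = 0.0600; -0.52 against control 3 alone). Both genes missed the threshold although their groups did not overlap, and the 4 probes of Rab12 ranged from -0.97 to 0.21. Rab9, which returns mannose 6-phosphate receptors to the Golgi, passed only against control 3 (-0.92, adjusted p = 0.050; -0.50 against all controls).

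Of 4 phagosome and mitochondrial Rabs, 2 rose and 1 fell, beside 11.8% and 8.03% of all genes. Rab20, found on phagosomes and endosomes of macrophages, had levels of -1.23, -0.90 and -1.03 on IFN-beta arrays, against -2.10, -2.38 and -2.09 on controls. The log2 fold change was 1.14 ± 0.17 (2.20-fold, limma adjusted p = 0.00453), with 1.04 against control 3 alone (adjusted p = 0.0421) and 0.96 within slide 1. The call was lost with the slide as a block (adjusted p = 0.0839) and within slide 1 (adjusted p = 0.187). Rab38, which delivers cargo to melanosomes and other lysosome-related organelles, had -0.11, -0.32 and -0.54 on IFN-beta arrays, against -1.55, -1.76 and -1.37 on controls. It rose by 1.24 ± 0.19 (adjusted p = 0.00448) and stood at 1.05 against control 3 alone (adjusted p = 0.0524). In both genes all IFN-beta arrays exceeded all controls, and control 3 was the highest control. Rab32, which shares the cargo route of Rab38, was at -0.15 ± 0.23 (adjusted p = 0.686), and the difference from Rab38 was not tested.

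Rab34, which works in phagosome maturation, lysosome positioning and the primary cilium, had levels of -0.26, -0.39 and -0.07 on IFN-beta arrays, against 2.61, 2.75 and 1.49 on controls. All IFN-beta arrays lay below all controls, with control 3 between the other controls and the IFN-beta arrays. Rab34 fell by 2.52 ± 0.33 (5.75-fold lower, limma adjusted p = 0.00216), by 1.73 against control 3 alone (adjusted p = 0.00834) and by 2.54 within slide 1. Fibroblast markers summed to 592, 687 and 1.75 on controls 1, 2 and 3 and to 4.01 to 4.58 on IFN-beta arrays. The part of such cells in the fall of Rab34 was not tested.

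Of 7 Rabs of regulated secretion, 3 rose and 1 fell, beside 11.8% and 8.03% of all genes. Rab44, a large Rab with calcium-binding EF hands that takes part in granule release by mouse mast cells, had levels of 3.91, 4.33 and 3.39 on IFN-beta arrays, against 1.17, 0.94 and 1.94 on controls. Rab37, a Rab of secretory granules, had 1.09, 1.21 and 0.93 on IFN-beta arrays, against -1.09, -1.12 and -0.47 on controls. Rab27a, which docks secretory granules and lysosome-related organelles at the plasma membrane, had 0.23, 0.56 and -0.10 on IFN-beta arrays, against -1.56, -1.53 and -1.17 on controls. In each of the 3 genes the groups did not overlap, and control 3 was the control nearest to the IFN-beta arrays.

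Rab44 rose by 2.52 ± 0.33 (5.75-fold, limma adjusted p = 0.00208), and its other probe by 2.36 ± 0.26. Rab37 rose by 1.97 ± 0.22 (adjusted p = 0.00103) and Rab27a by 1.65 ± 0.22 (adjusted p = 0.00236). Against control 3 alone the 3 values were 1.94 (adjusted p = 0.0295), 1.54 (adjusted p = 0.0107) and 1.40 (adjusted p = 0.0391) in the order Rab44, Rab37, Rab27a. Within slide 1 they were 2.56, 1.98 and 1.65. Neutrophil and basophil or mast cell markers were higher on the same arrays, also against control 3 alone (6 of 10 and 8 of 8 genes), with summed signals of 477 to 597 and 68.4 to 101 on IFN-beta arrays, against 164 to 271 and 7.14 to 12.1 on controls. The part of such cells in the rise of Rab44, Rab37 and Rab27a was not tested.

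Rab27b, the close relative of Rab27a in platelets and mast cells, passed the filter through the IFN-beta group, as control 3 was not well above background. Its levels were -2.55, -2.78 and -3.41 on IFN-beta arrays, against -2.11, -1.59 and -5.23 on controls, so the IFN-beta arrays lay between control 3 and the other controls. Over all controls the change was 0.06 ± 0.86 (limma adjusted p = 0.966). Against control 3 it was at least 2.87-fold higher, a description with no test, since Rab27b was kept only through the IFN-beta group. Against controls 1 and 2 the change was -1.06 (adjusted p = 0.0283), so the direction turned with the control used.

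Rab3a, the Rab of synaptic vesicles and other regulated secretion, had levels of -0.86, -0.84 and -0.66 on IFN-beta arrays, against 0.67, 0.97 and 0.20 on controls. The IFN-beta arrays lay below every control, and control 3 was the lowest control. Rab3a fell by 1.40 ± 0.22 (limma adjusted p = 0.00523), by 0.99 against control 3 alone (adjusted p = 0.0391) and by 1.47 within slide 1. The call was lost with the slide as a block (adjusted p = 0.0627) and within slide 1 (adjusted p = 0.149). Rab3d, the isoform of secretory granules in several tissues, was at 0.22 ± 0.19. Rab3b, above background on 1 IFN-beta array and 3 controls, had -4.04, -4.63 and -4.20 on IFN-beta arrays, against -4.04, -4.15 and -4.12 on controls. These groups overlap, and no fold is given for Rab3b.

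In the endoplasmic reticulum and Golgi group, 1 of 12 tested genes rose and 1 fell, beside 11.8% and 8.03% of all genes. Rab19, a Rab found at the Golgi whose promoter is printed above, had levels of 3.22, 3.04 and 3.43 on IFN-beta arrays, against 1.85, 1.76 and 2.51 on controls. It rose by 1.19 ± 0.24 (limma adjusted p = 0.0136) and stood at 0.72 against control 3 alone (adjusted p = 0.125) and 1.18 within slide 1, and the call was lost with the slide as a block (adjusted p = 0.135). The groups did not overlap, with control 3 nearest to the IFN-beta arrays. The call was lost without IFN-beta 3 or without control 1 (highest adjusted p = 0.0568).

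Rab6b, the neuron-enriched relative of the Golgi Rab6a, had levels of -1.98, -2.32 and -1.78 on IFN-beta arrays, against 1.004, 1.93 and -0.20 on controls. All IFN-beta arrays were lower, but the controls spread over more than the IFN-beta arrays. Rab6b fell by 2.94 ± 0.48 (7.66-fold lower, limma adjusted p = 0.00604), the lowest log2 fold change of the 61, by 1.83 against control 3 alone (adjusted p = 0.0126) and by 2.89 within slide 1. The call was lost with the slide as a block (adjusted p = 0.0877) and within slide 1 (adjusted p = 0.176). Rab6a, which serves transport through the Golgi in most cells, was at 0.13 ± 0.17, and the difference from Rab6b was not tested.

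The general secretory Rabs of this group did not pass: Rab1a stood at -0.05 ± 0.27, Rab1b at -0.20 ± 0.18, Rab2a at 0.24 ± 0.18, Rab2b at -0.20 ± 0.16, Rab18 at -0.04 ± 0.21 and Rab43 at -0.22 ± 0.18. Rab33a, a Golgi-associated Rab, had levels of -3.01, -3.17 and -3.54 on IFN-beta arrays, against -3.82, -4.04 and -3.69 on controls. It missed the threshold (0.61 ± 0.20, limma adjusted p = 0.0682; 0.45 against control 3 alone), although its groups did not overlap. Its relative Rab33b, which acts in autophagy, was at -0.37 ± 0.15 (adjusted p = 0.120). Rab39 passed only against control 3 (-0.96, adjusted p = 0.0354; -0.40 ± 0.25 against all controls).

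None of the 6 exocytic, polarity and cilium Rabs passed in limma, beside 19.8% of all genes. An unadjusted limma p under 0.05 was reached by 2 of these 6, and by at least 6526 of all 19499 genes. Rab13, known from tight junctions, had levels of -3.38, -2.36 and -2.48 on IFN-beta arrays, against -1.69, -1.71 and -2.04 on controls (-0.93 ± 0.29, adjusted p = 0.0579; -0.70 against control 3 alone). Within slide 1 and with the slide as a block, Rab13 stood at -1.57, which rests on IFN-beta 1, its lowest array. The other probe of Rab13 passed (-1.02 ± 0.16, limma adjusted p = 0.00403). Rab8a, which directs exocytic vesicles to the membrane and the cilium, had 2.89, 2.54 and 2.94, against 2.17, 2.12 and 2.46 on controls (0.54 ± 0.19, adjusted p = 0.0805; 0.33 against control 3 alone). The groups of both genes did not overlap. Rab8b (0.43 ± 0.21), Rab28 (0.36 ± 0.17), Rab10 (-0.01 ± 0.19) and Rab23 (-0.49 ± 0.31) did not pass, although a second probe of Rab8b did (1.05 ± 0.23, adjusted p = 0.0174). Rab42 had -3.59, -3.83 and -3.20 on IFN-beta arrays, against -2.63, -2.51 and -3.13 on controls, and missed the threshold (-0.78 ± 0.24, adjusted p = 0.0572; -0.41 against control 3 alone), and Rab40c was at 0.01 ± 0.20.

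Of the 11 genes that are not GTPases, 4 fell and none rose, beside 8.03% and 11.8% of all genes. Rab11fip3, a Rab11 effector that brings recycling endosomes to the dividing cell, had levels of -1.20, -1.04 and -0.68 on IFN-beta arrays, against 0.86, 1.17 and -0.26 on controls. It fell by 1.56 ± 0.37 (limma adjusted p = 0.0234), but stood at -0.71 against control 3 alone. Fibroblast markers summed to 592, 687 and 1.75 on controls 1, 2 and 3, and their part in the fall of Rab11fip3 was not tested. The call was lost when any 1 array other than control 3 was left out (highest adjusted p = 0.0805). Rab11fip5, another Rab11 effector, had 3.02, 2.998 and 3.04 on IFN-beta arrays, against 3.81, 3.72 and 4.12 on controls. It fell by 0.86 ± 0.17 (adjusted p = 0.0126) and by 1.10 against control 3 alone (adjusted p = 0.0229), and lost the call without IFN-beta 2 or without control 1 (highest adjusted p = 0.0577). For both effectors the groups did not overlap, and control 3 was the lowest control for Rab11fip3 but the highest for Rab11fip5.

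Rab3il1, an exchange factor also called GRAB, had levels of 3.63, 3.55 and 3.72 on IFN-beta arrays, against 4.25, 4.22 and 4.80 on controls. It fell by 0.79 ± 0.20 (limma adjusted p = 0.0331) and by 1.16 against control 3 alone (adjusted p = 0.0218), while its other probes were at -1.21 and 0.53, so the probes disagree in sign. Rab3ip, the Rab8 exchange factor Rabin8, had 0.54, 0.36 and 0.48 on IFN-beta arrays, against 1.10, 1.01 and 1.04 on controls. It fell by 0.59 ± 0.15 (adjusted p = 0.0330) and stood at -0.58 against control 3 alone (adjusted p = 0.150). The groups of both exchange factors did not overlap, and both calls were lost when any 1 array other than control 3 was left out (highest adjusted p = 0.116 for Rab3il1 and 0.158 for Rab3ip). The other 7 did not pass and ranged from 0.04 for Rab26os to 0.59 for Rab3gap2, whose second probe passed in the other direction (-0.73 ± 0.17, adjusted p = 0.0204).

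**Figure D4:**
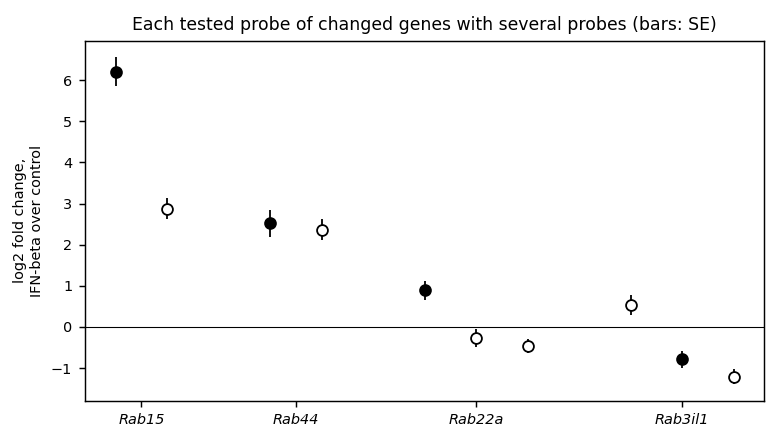
Log2 fold change with its standard error (IFN-beta over control, y axis) for each tested probe of the 4 changed genes with several probes; filled points mark the probe that represents the gene. Both probes of Rab44 passed upward, whereas Rab22a and Rab3il1 have probes on both sides of 0. The filled Rab15 probe passed upward. Its open probe was dim on 2 controls and kept only through the IFN-beta group, so that point is neither a test result nor a measured fold.

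Of 32 genes with several tested probes, 17 had probes that differed in sign. In 6 genes that did not pass by their brightest probe another probe passed: Rab13 and Rab12 (lower), Rab8b, Rab1a and Rab31 (higher) and Rab3gap2 (lower). The 45 genes that did not pass had fitted log2 fold changes between -0.93 and 0.61. A missed threshold does not show that a gene was the same in both groups.

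The remaining 9 of the 70 genes were not tested. Rab25, Rab39b and Rab3c were above background on no array. Rab26, Rab30, Rab36, Rab40b and Rab9b were above background on controls 1 and 2 and on no other array: Rab40b, for example, had -6.34, -6.55 and -6.25 on IFN-beta arrays, against -2.75, -2.44 and -6.76 on controls. Controls 1 and 2 are the arrays with the high fibroblast marker sums and the high Hba-a1 levels, and the part of other cells in these genes was not tested. Rab17, an epithelial Rab, was above background on 2 IFN-beta arrays and 2 controls. These 9 are absent from the counts above.

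Genes that load, switch or read the Rabs were counted from lists by function. Of 9 proteins of the Rab cycle, 1 fell, beside 8.03% of all genes. It was the escort protein Chml (Rep2, -0.76 ± 0.20, limma adjusted p = 0.0384), which stood at -1.14 against control 3 alone. Of 28 exchange factors, 4 rose, beside 11.8% of all genes, and none fell, and the 3 with the lowest p were Dennd2d (1.34 ± 0.23), Dennd1b (0.95 ± 0.19) and the Rab6 exchange factor subunit Ric1 (0.86 ± 0.18). None of the 4 passed in limma against control 3 alone (adjusted p from 0.0524 for Dennd2d to 0.308 for Hps1). Of 31 GTPase-activating proteins, 4 changed, beside 19.8% of all genes: 2 rose, Tbc1d10c (1.33 ± 0.27) and Tbc1d8 (0.80 ± 0.22), and 2 fell, Evi5l (-0.95 ± 0.19) and Tbc1d12 (-0.998 ± 0.21). Against control 3 alone these 4 also missed the threshold (adjusted p from 0.122 for Evi5l to 0.361 for Tbc1d8).

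Of 30 Rab effectors, 6 rose and 1 fell, beside 11.8% and 8.03% of all genes. Of these 7, Sytl3 also passed against control 3 alone, and the others did not. The largest rise was in Sytl3, a synaptotagmin-like protein that binds Rab27, with levels of 0.97, 0.61 and 0.02 on IFN-beta arrays, against -2.09, -2.36 and -1.74 on controls. It rose by 2.59 ± 0.28 (limma adjusted p = 8.99e-04) and by 2.27 against control 3 alone (adjusted p = 0.0190), and all IFN-beta arrays exceeded all controls. Sytl1, a further Rab27 effector, rose by 1.36 ± 0.22 (adjusted p = 0.00571) but missed the threshold against control 3 alone (1.11, adjusted p = 0.0748). Rabepk, a Rab9 effector, rose by 1.09 ± 0.20 (adjusted p = 0.00938), with 0.84 against control 3 alone (adjusted p = 0.103). Rilp, which links Rab7 to dynein, fell by 0.57 ± 0.16 (adjusted p = 0.0461), with -0.44 against control 3 alone (adjusted p = 0.269). The medians of the 4 lists were -0.16, 0.29, 0.18 and 0.10, in the order cycle, exchange, activating and effector proteins, beside 0.10 over all genes.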

How the data were processed

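Per the labels, RNA of 3 IFN-beta and 3 control samples was hybridised to 1-colour Agilent arrays, and per the file headers the authors extracted the spots with Feature Extraction 12.0.3.1. The submitters' processing notes name Agilent Feature Extraction and limma. The deposited scanner files give each spot's intensity as a processed signal that was not normalized across arrays. A deposited matrix has log2 values whose exact normalization is not given in the sources used here. Each of its columns correlated with its own array at r from 0.996 to 0.999, the column medians were 4.83, 4.83 and 4.82 for IFN-beta and 4.82, 4.82 and 4.83 for control, values were not centred per gene, and it served only as an alternative.

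Control spots and spots marked as outliers (135 to 174 per array, which set aside 7 of 56605 probes) were left out and spots of a probe averaged. Levels are log2 processed signal minus the array's 75th percentile. Of the 137 probes whose name fits the Rab pattern, 112 lay well above background on all 3 arrays of at least 1 group. The brightest probe on average over the 6 arrays stood for its gene. The fit used limma 3.58.1 (R 4.3.3, with the data.table package, version 1.17.8), lmFit and eBayes, with no covariate, 4 residual degrees of freedom and Benjamini-Hochberg adjustment over all 19499 genes tested, at a threshold of 0.05. Data were simulated with these genes and independent noise, with 50 genes changed at each log2 of -3, -1, 1 and 3. In them, 96% of genes raised by a log2 of 3 and 34% of those raised by 1 were called in the comparison of IFN-beta with control. The real data had 3865 called genes and a control 3 that stood apart, so these shares do not give the power of the real comparison. For a gene dim on 1 side the fold is a bound, taken against the dim probe's value or, if higher, the array's lowest signal well above background.

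Values on every array are given for called members, the 10 highest and 10 lowest fold changes and members dim on 1 side, and from each pathway list the 3 called genes with the lowest p in each direction are named; other members are named with fewer values. Members, roles and lists were chosen with earlier results of these data known. Symbols follow the files, except Rab1, given here as Rab1a. Promoters came from RefSeq tables on GRCm38.p6 and probe positions from the files, on mm9. Alternatives were other normalizations, filters, probe rules, array weights, blocks and leaving out each array.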

Additional observations from a re-analysis of the deposited data

How the results depend on the processing

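The 16 called Rab genes kept their sign under all 19 alternatives. Where an array was left out, within slide 1 and with the slide as a block, the sign was fixed, since the groups did not overlap. Of the 16, 9 (Rab15, Rab20, Rab27a, Rab34, Rab37, Rab38, Rab3a, Rab44 and Rab6b) stayed called whichever array was left out. No such count was made over all genes. Against all controls, the count of changed Rab genes, 16, was 9 with no filter on dim probes (70 genes tested), 43 with array weights (a fit that did not converge), 7 with the slide as a block, 1 within slide 1 (4 arrays), and 9 (without control 1) to 36 (without control 3) when leaving out 1 array; it was 10 without IFN-beta 2 and without IFN-beta 3. Against control 3 alone, 13, it was 5 with no filter. The count over all genes, 3865, was 1693 with no filter, 12744 with array weights, 1039 with the slide as a block, 369 within slide 1, and 1831 (without control 1) to 9396 (without control 3) when leaving out 1 array; it was 1851 without IFN-beta 2. The median over Rab genes, 0.06, was -0.11 with spike-in scaling and -0.15 against control 3 alone. Rab27b, 0.06, turned to -0.82 with array weights and ran from -1.06 (without control 3) to 0.76 (without control 2) when leaving out 1 array, and Rab3b, -0.19, to 0.52 with normexp background correction and percentile scaling. The causes were not tested. Splits moved with scaling: 9 higher and 11 lower Rab genes with quantile normalization, 10 and 11 with it after normexp, 9 and 10 in the deposited table and 7 and 8 with spike-in scaling, against 9 and 7; against control 3 alone, 3 and 7 with quantile normalization and in the deposited table, against 6 and 7; and 35.9% of changed genes were higher with spike-in scaling and 69.9% with normexp, against 59.5%. Spike-in scaling moved the median of all genes to -0.08, against 0.10. With the replicate block, 14 Rab genes (9 higher, 5 lower) and 3263 genes in all passed. After each gene's group mean was subtracted, the remainders of same-numbered arrays correlated at 0.07, 0.02 and 0.07. By these remainders each of the 6 arrays correlated best with its own number in the other group, but the labels state no pairing. Of the 45 uncalled genes, 27 turned sign in some setting. Dim probes and 3 arrays a group limit what could be detected.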
